A study of Homo sapiens with 18 samples.

Results

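The collagen genes were taken as every row of the expression table whose symbol consists of COL, a number, A and a number, which gave 44 genes of 26372. The RNA-seq libraries came from SH-SY5Y, an established line of human neuroblastoma cells, infected with a ZNHIT3 lentivirus and sampled at day 0 or day 18 of neuronal differentiation, which was induced 48 h after infection. ZNHIT3 is a zinc-finger protein with a part in the assembly of small nucleolar ribonucleoproteins. The cells received the wild-type construct (WT), a construct with the C14R substitution, or a construct with a short deletion, which the treatment labels give as 251-254, 251-255 and 251-256 in replicates 1, 2 and 3. Each construct was sampled with 3 libraries at each day, which gave 6 groups and 18 libraries. All 6 groups carried a delivered ZNHIT3 made from FUGW, a lentiviral backbone with a ubiquitin C promoter, so WT stands for an added wild-type copy and not for uninfected cells. Differentiation used 10 µM retinoic acid, 50 ng/ml BDNF (brain-derived neurotrophic factor), 2 mM dibutyryl cyclic AMP and 20 mM KCl, and the 9 day 18 libraries differ from the 9 day 0 libraries in all of these agents and in time. Nothing in the labels says that replicates came from separate cultures or infections, so p-values measure the spread between these libraries, which may be technical.

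Collagens are secreted or membrane-bound proteins built from chains that wind around each other as a triple helix. Fibrillar collagens assemble into the fibres of connective tissue, type IV collagens form the sheet of basement membranes, type VI collagens form beaded filaments near cells, and FACIT collagens sit on the surface of fibrils. Others cross the plasma membrane or form hexagonal nets. Many trimers mix chains of different genes, so the levels of partner chains are set side by side here. In the nervous system collagens lie mostly in basement membranes and in the matrix around axons, and neuroblastoma cells of mesenchymal type are known for a matrix-rich expression profile.

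The values were deposited as FPKM (fragments counted per gene, scaled to transcript length and library size), a scale adjusted for length on which levels of different genes can be compared within the limits of the gene models used. Absolute depth is unknown. Steps between low values put the day 0 libraries at 59.3% to 84.7% of the depth of the deepest library and the day 18 libraries at 82.9% to 100%. ZNHIT3 itself stood at 538 ± 6.33 (SD, n = 3) FPKM in WT, 424 ± 7.09 in C14R and 303 ± 9.4 in deletion at day 0, and at 1153 ± 46.1, 653 ± 88.9 and 302 ± 9.89 at day 18. Of the sympathetic neuroblastoma markers, HAND2 and ISL1 were at 55.3 FPKM or more in every library, while TH and INSM1 were at 1.02 FPKM or less. One library stood apart, C14R replicate 1 of day 18, which was the lowest of the 9 day 18 libraries for 8 of the 18 collagen genes tested and the highest for 0. The C14R differences from WT at day 18 named here are given with and without it. Without it, the 17 collagen genes called between days in C14R were called again.

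Of the 44 collagen genes, 18 had a mean of at least 1 FPKM over the 18 libraries and were tested. Another 26 had a lower mean, of which 15 were under 0.1 FPKM and 11 lay from 0.1 to under 1 FPKM. None was listed at 0 in all libraries, and 13 were listed at 0 in at least 1. The members tested were 6 of 11 fibrillar collagens, 2 of 6 type IV, 2 of 5 type VI, 2 of 10 FACIT, 1 of 2 multiplexins, 2 of 4 transmembrane, 2 of 3 short-chain network collagens and 1 of 3 others.

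At day 0 the collagen pool was dominated by COL3A1, and at day 18 COL6A2 held the largest share. The gene next to COL6A2 at day 18 differed by construct. In WT the COL3A1 mean of 28.6 FPKM lay above the COL6A1 mean of 23.7 FPKM. In C14R (20.9 and 24.4 FPKM) and in deletion (21.2 and 25.6 FPKM) the COL3A1 mean lay below that of COL6A1. The FPKM of all 44 genes summed to between 368 and 412 in the 9 day 0 libraries (median 383) and between 142 and 188 in the 9 day 18 libraries (median 176), where 142 is C14R replicate 1 and the other 8 lay from 164 up. COL3A1 held 49.1% to 52.7% of that sum at day 0 and 10.6% to 17.5% at day 18. The COL4A1 and COL4A2 pair held 15.1% to 16.3% of the sum at day 0 and 2.76% to 3.31% at day 18. COL6A1 and COL6A2 together held 10.6% to 11.3% of the sum at day 0 and 47.3% to 53.2% at day 18. The days did not overlap in any of these 4 quantities, which are descriptions over 9 libraries each and were not tested. As a class, the fibrillar collagens summed to 251 ± 7.33 FPKM (SD, n = 3) in WT at day 0 and to 48.0 ± 1.84 at day 18, the type IV collagens to 61.2 ± 0.77 and 5.75 ± 0.17, and the type VI collagens to 44.7 ± 1.81 and 84.3 ± 5.60.

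**Figure D1:**
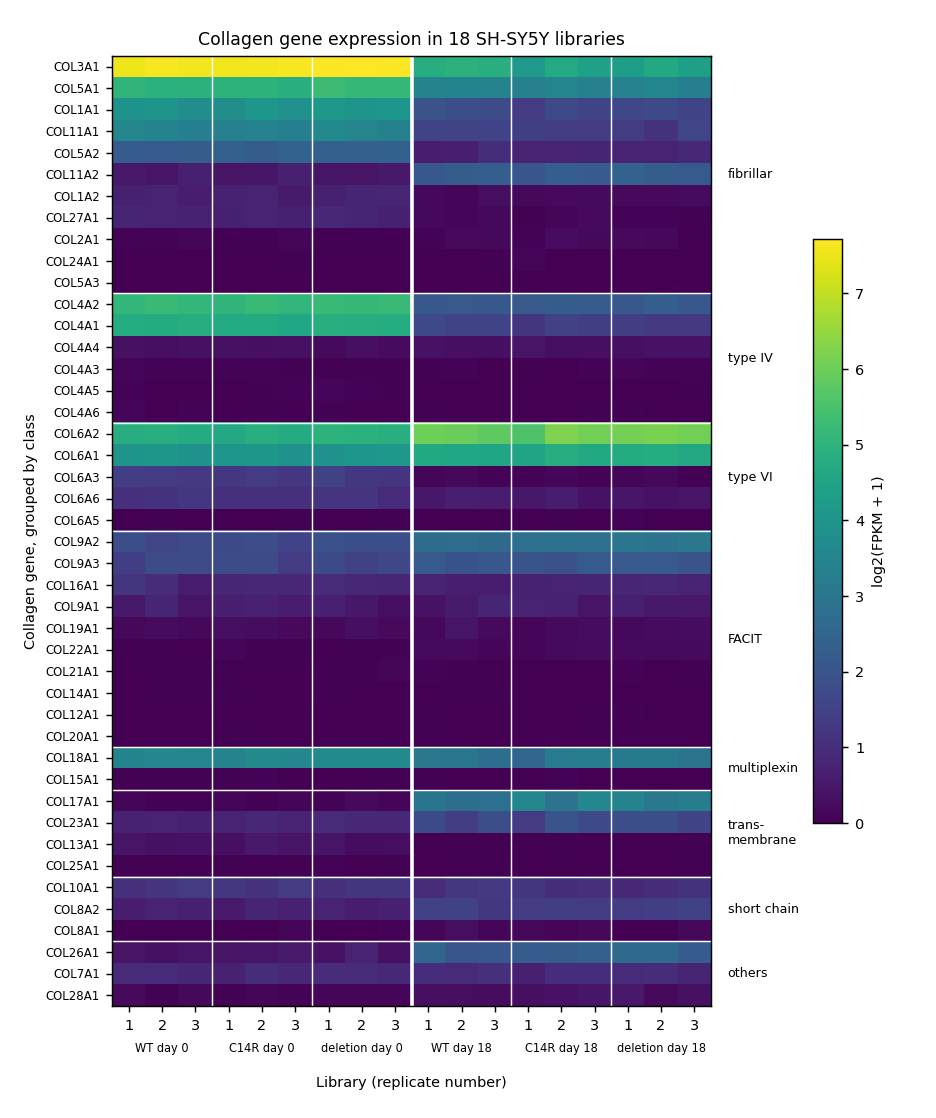
Expression of the 44 collagen genes, grouped by class (rows), in each of the 18 libraries (columns, 3 replicates in each of 6 groups), as colour on the log2(FPKM + 1) scale. The row of COL3A1 is brightest in the 9 day 0 libraries, at 182 to 209.6 FPKM, and COL6A2 is brightest in the 9 day 18 libraries, at 46.6 to 73.3 FPKM.

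Differences were tested with limma on log2(FPKM + 1) over 13785 genes, with p-values adjusted by the Benjamini-Hochberg method and called at an adjusted p under 0.05. In WT, 9 of the 18 tested collagen genes rose from day 0 to day 18, 8 fell, and COL10A1 was not called. The same 9 and the same 8 were called in C14R and in deletion. These comparisons have no library in common but use 1 estimate of spread per gene from all 18 libraries, so their p-values are not independent. In all 17 the 3 libraries of one day lay apart from the 3 of the other day in each line. Most called genes of the pathway lists described below were separated in this way too, and no share over all genes is given. The separation is therefore not read as particular to collagens. Calls were common among all genes: 72.2% of tested genes were called in WT (38.2% higher and 34% lower), 72.9% in C14R (37.9% and 35%) and 73% in deletion (38.6% and 34.4%). The median log2 change in WT was 0.18 over the 18 collagen genes and 0.03 over all genes tested. By class, 5 of the 6 fibrillar members tested and both type IV members fell, while both type VI, both FACIT and both transmembrane members tested rose. These counts depend on the expression minimum. COL11A2, COL17A1, COL23A1, COL26A1 and COL8A2 were under 1 FPKM in every day 0 library and passed the minimum through day 18. Among members below the minimum, COL6A3, COL6A6, COL13A1, COL27A1 and COL1A2 fell in WT in a fit without it, and COL22A1 and COL8A1 rose. Log2 changes are on the log2(FPKM + 1) scale, which makes changes of weakly expressed genes look smaller than they are.

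**Figure D2:**
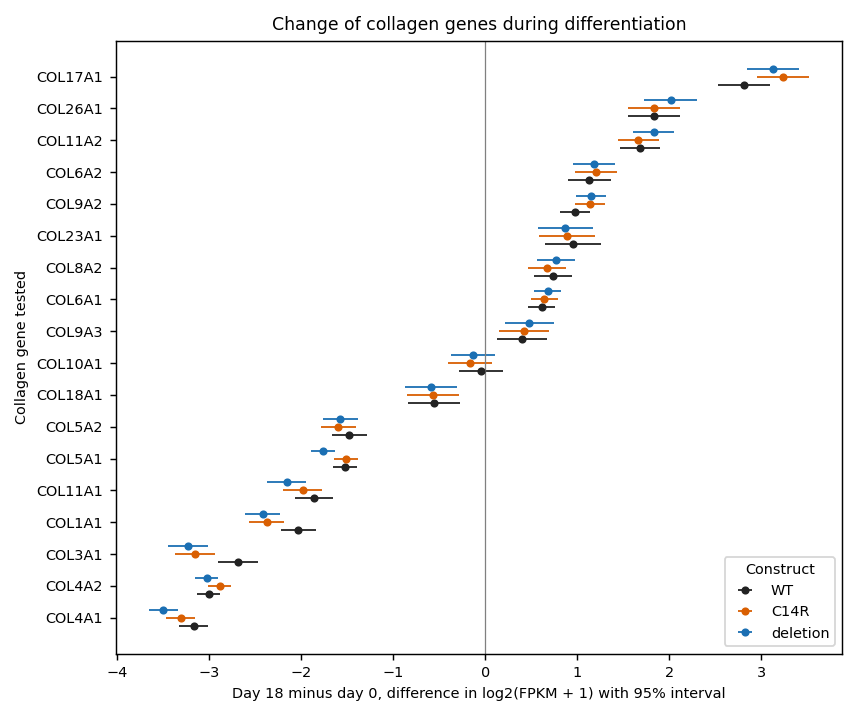
Difference in log2(FPKM + 1) between day 18 and day 0 (horizontal axis) for the 18 collagen genes tested (vertical axis) in WT, C14R and deletion libraries, with unadjusted 95% intervals from limma. From COL4A1, at -3.17 in WT, up to COL18A1 the points of all 3 constructs lie below 0, and from COL9A3 up to COL17A1, at 2.81 in WT, they lie above 0.

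COL3A1 (chromosome 2, 188974320 to 189012746, plus strand on GRCh38) encodes the single chain of type III collagen, a fibrillar collagen of soft, extensible tissue. At day 0 COL3A1 stood at 182, 198 and 192 FPKM in WT, 188, 191 and 197 in C14R and 203, 209.6 and 205 in deletion libraries. At day 18 COL3A1 stood at 27.2, 30.3 and 28.4 FPKM in WT, 17, 25.3 and 20.4 in C14R and 19, 24.7 and 19.8 in deletion libraries. It was the highest collagen gene of every day 0 library, and every day 18 library lay below all of them. The WT mean was 6.65-fold lower at day 18 (log2 change -2.69, SE 0.10, limma adjusted p = 2.2e-13), and the log2 change was -3.16 in C14R and -3.23 in deletion.

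COL1A1 (chromosome 17, 50183289 to 50201632, minus strand) encodes the alpha 1 chain of type I collagen, the main collagen of bone and tendon, and COL1A2 encodes the alpha 2 chain of the same trimer. COL1A1 had 14.3, 15 and 12.7 FPKM in WT, 13.2, 15.7 and 14 in C14R and 16.4, 14.9 and 15.7 in deletion libraries at day 0. At day 18 COL1A1 had 2.91, 2.63 and 2.45 FPKM in WT, 1.58, 2.26 and 2.03 in C14R and 2.12, 2.25 and 1.98 in deletion libraries, all below the lowest day 0 value. In WT this was a 5.25-fold lower mean (log2 change -2.03, SE 0.09, adjusted p = 1.3e-12). COL1A2 was much lower than its partner on both days, with 0.596, 0.656 and 0.551 FPKM in WT, 0.65, 0.654 and 0.482 in C14R and 0.616, 0.748 and 0.794 in deletion libraries at day 0. Its day 18 values were 0.128, 0.0959 and 0.219 FPKM in WT, 0.119, 0.147 and 0.151 in C14R and 0.148, 0.144 and 0.179 in deletion libraries. COL1A2 missed the expression minimum, and in a fit of all 21412 genes above 0 in any library its log2 change in WT was -0.48 (adjusted p = 1.3e-06).

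The type V and type XI collagens regulate the width of fibrils, and their chains can join in mixed trimers. COL5A1 (chromosome 9, 134641774 to 134844843, plus strand) stood at 32, 29.7 and 29.9 FPKM in WT, 30.5, 30.9 and 27.5 in C14R and 38, 34.3 and 34.3 in deletion libraries at day 0. By day 18 COL5A1 stood at 9.85, 10.1 and 9.89 FPKM in WT, 9.38, 10.5 and 9.31 in C14R and 9.75, 10.5 and 9.15 in deletion libraries, all below the day 0 range. The mean was 3.07-fold lower in WT (log2 change -1.53, SE 0.06, adjusted p = 4.3e-13). COL5A2, the partner chain, had 3.72, 3.67 and 3.81 FPKM in WT, 4.2, 3.88 and 4.4 in C14R and 4.14, 4.15 and 4.28 in deletion libraries at day 0. COL5A2 then had 0.549, 0.583 and 1.01 FPKM in WT, 0.663, 0.689 and 0.758 in C14R and 0.682, 0.714 and 0.834 in deletion libraries at day 18 (log2 change in WT -1.48, SE 0.09, adjusted p = 1.2e-10). COL5A3, the third type V chain, was at 0 to 0.0113 FPKM at day 0 and 0 to 0.00971 FPKM at day 18.

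The 2 type XI chain genes moved in opposite directions. COL11A1 (chromosome 1, 102876467 to 103108872, minus strand) had 10.4, 10.1 and 9 FPKM in WT, 9.18, 9.82 and 9.12 in C14R and 11.7, 10.4 and 9.47 in deletion libraries at day 0. Its day 18 values were 2, 2.01 and 1.95 FPKM in WT, 1.71, 1.57 and 1.58 in C14R and 1.57, 1.17 and 2.04 in deletion libraries, below every day 0 value. COL11A2 (chromosome 6, 33162681 to 33192499, minus strand) had 0.445, 0.352 and 0.602 FPKM in WT, 0.331, 0.388 and 0.61 in C14R and 0.351, 0.329 and 0.454 in deletion libraries at day 0, below COL11A1 in each library. At day 18 COL11A2 reached 3.31, 3.83 and 3.97 FPKM in WT, 3.11, 3.98 and 3.64 in C14R and 4.38, 3.83 and 3.55 in deletion libraries, above COL11A1 in each library. The WT mean of COL11A1 was 4.97-fold lower at day 18 (log2 change -1.86, SE 0.10, adjusted p = 1.9e-11). That of COL11A2 was 7.95-fold higher (log2 change 1.68, SE 0.10, adjusted p = 1.6e-10). COL11A2 was the only tested fibrillar member that rose. The RefSeq sequence before the COL11A1 RefSeq start is shown because this gene fell while its partner rose, with matches of the motifs searched in capitals (GRCh38.p14, chr1:103108523-103108772, minus strand, 250 bases up to the base before the RefSeq start, 68.8% GC). The GENCODE start lies 350 bases upstream of the RefSeq start, so these bases lie within the GENCODE gene span given above, in no annotated exon.
COL11A1: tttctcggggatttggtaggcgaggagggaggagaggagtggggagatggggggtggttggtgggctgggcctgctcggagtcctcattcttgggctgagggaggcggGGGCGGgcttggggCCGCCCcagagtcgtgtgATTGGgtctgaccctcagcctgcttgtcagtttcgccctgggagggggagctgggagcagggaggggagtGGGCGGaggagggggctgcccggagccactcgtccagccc

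The motifs searched, on both strands, were the GC box GGGCGG, the CCAAT box, the TATA box letters TATAAA, the nuclear receptor half-site AGGTCA and the cyclic AMP response element TGACGTCA. The last pair was included because retinoic acid and dibutyryl cyclic AMP were in the medium. RefSeq promoters were found for 32 members, 13 of them among the 18 tested. Of those 13, 9 held GGGCGG in the 250 bases before the start, 4 CCAAT, 2 TATAAA, 0 AGGTCA and 0 TGACGTCA. Of 35116 promoters of the same length, 42.6% held GGGCGG, 32.0% CCAAT, 10.7% TATAAA, 12.1% AGGTCA and 1.65% TGACGTCA. A match on the other strand reads CCGCCC for the GC box and ATTGG for the CCAAT box. A match describes letters in the window and no binding was measured.

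COL4A1 and COL4A2 encode the chains of the most widespread type IV collagen, in a trimer of alpha 1 and alpha 2 chains. They lie head to head on chromosome 13, COL4A1 on the minus strand and COL4A2 on the plus strand, with 126 bases between their RefSeq starts. The GENCODE gene spans reach further and overlap by 1422 bases. COL4A1 was at 26.4, 25.8 and 26.8 FPKM in WT, 25.1, 25.2 and 23.5 in C14R and 28.3, 27.3 and 26.6 in deletion libraries at day 0. COL4A1 was at 2.22, 1.94 and 1.96 FPKM in WT, 1.23, 1.86 and 1.69 in C14R and 1.66, 1.45 and 1.43 in deletion libraries at day 18. Every day 18 library lay far below the day 0 range. COL4A2 was at 33.8, 35.9 and 33.5 FPKM in WT, 32.3, 35.4 and 32.9 in C14R and 36.8, 34.6 and 35.5 in deletion libraries at day 0. COL4A2 was at 3.37, 3.45 and 3.38 FPKM in WT, 3.48, 3.8 and 3.7 in C14R and 3.3, 3.94 and 3.27 in deletion libraries at day 18. The fall in WT was 12.9-fold for COL4A1 (log2 change -3.17, SE 0.08, adjusted p = 4.8e-16) and 10.1-fold for COL4A2 (log2 change -3.01, SE 0.06, adjusted p = 4.0e-17). These were the largest falls among the tested collagen genes in each of the 3 lines, except that COL3A1 fell further than COL4A2 in C14R and deletion. Exons of COL4A2 overlap those of the antisense genes COL4A2-AS1 and COL4A2-AS2, with 81 bases as the largest overlap with a single gene. Whether the counting used strand is not given in the sources used here.

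Of the 126 bases between the RefSeq starts, 2 windows are shown because the genes on either side both fell. The stretch holds 1 CCAAT box and 1 GC box, each printed here in capitals within 30 bases of the plus strand (GRCh38.p14, chr13:110307166-110307195 and chr13:110307207-110307236). By GENCODE the first window overlaps an exon of COL4A1 and the second exons of both genes. The 126 bases had a GC content of 80.2%, against a median of 60.3% over all promoter windows of that length. GGGCGG occurred in 34.6% and CCAAT in 21.1% of those windows.
COL4A1-COL4A2 CCAAT window: cgggccgagctccCCAATttgttggcgctg
COL4A1-COL4A2 GC box window: ccggcggtgcgcGGGCGGcgcctcaaaggg

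The other 4 type IV genes, which encode the chains of more specialised basement membranes, stayed low. COL4A3 was at 0.0155 to 0.0766 FPKM at day 0 and 0.0179 to 0.0665 at day 18. COL4A4 was at 0.151 to 0.271 and 0.225 to 0.317 FPKM, COL4A5 at 0.00986 to 0.0683 and 0 to 0.0275 FPKM, and COL4A6 at 0 to 0.0851 and 0 to 0.0375 FPKM. These 2 gene pairs are also arranged head to head, COL4A3 with COL4A4 and COL4A5 with COL4A6, with 418 and 379 bases between their RefSeq starts.

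Type VI collagen forms beaded filaments from a trimer of alpha 1, alpha 2 and usually alpha 3 chains. COL6A2 (chromosome 21, 46098097 to 46132849, plus strand) stood at 27.1, 27.7 and 25.6 FPKM in WT, 24.5, 27.6 and 25.6 in C14R and 30.9, 29.4 and 28.4 in deletion libraries at day 0. At day 18 COL6A2 stood at 64.2, 60.7 and 55.3 FPKM in WT, 46.6, 73.3 and 66.2 in C14R and 68.5, 70.5 and 66 in deletion libraries, where C14R replicate 1 was the lowest of the 9 and the others lay from 55.3 FPKM up. The WT mean was 2.24-fold higher at day 18 (log2 change 1.13, SE 0.11, adjusted p = 5.6e-08). COL6A1 lies on the same strand 93047 bases away and had 14.8, 16 and 14.4 FPKM in WT, 15.6, 15.8 and 14.2 in C14R and 14.8, 15.8 and 16.2 in deletion libraries at day 0. COL6A1 had 24.7, 23.9 and 22.4 FPKM in WT, 21.6, 26.8 and 24.7 in C14R and 25.9, 26.7 and 24.2 in deletion libraries at day 18, a rise of 1.57-fold in WT (log2 change 0.62, SE 0.07, adjusted p = 4.2e-07). COL6A2 was the highest collagen gene in each day 18 library.

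COL6A3, the alpha 3 chain gene, went the other way. COL6A3 had 1.65, 1.55 and 1.45 FPKM in WT, 1.4, 1.51 and 1.34 in C14R and 1.83, 1.39 and 1.29 in deletion libraries at day 0. At day 18 COL6A3 had 0.0882, 0.128 and 0.0551 FPKM in WT, 0.0537, 0.0946 and 0.0571 in C14R and 0.0752, 0.112 and 0.0388 in deletion libraries, the highest of them far below the lowest day 0 value. Its mean was under 1 FPKM, and in the fit with no expression minimum its log2 change in WT was -1.22 (adjusted p = 4.7e-10). COL6A6, a chain that can take the place of alpha 3, fell as well in that fit, from 0.951 to 1.37 FPKM to 0.301 to 0.559 FPKM (log2 change -0.58, adjusted p = 2.2e-06). COL6A5 was at 0 to 0.0295 FPKM at day 0 and 0 to 0.0439 FPKM at day 18. The bases before the COL6A2 start are shown because this gene led the collagens at day 18 (GRCh38.p14, chr21:46097862-46098096, plus strand, 235 bases ending 15 bases before the RefSeq start, 79.6% GC, matches in capitals). They hold 4 GC boxes and 1 TATA box.
COL6A2: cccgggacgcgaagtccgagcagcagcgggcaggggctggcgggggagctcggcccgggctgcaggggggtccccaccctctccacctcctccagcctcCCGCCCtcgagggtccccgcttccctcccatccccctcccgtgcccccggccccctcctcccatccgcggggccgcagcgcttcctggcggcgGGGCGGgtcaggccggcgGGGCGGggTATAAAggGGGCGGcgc

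FACIT collagens attach to fibrils, and type IX collagen joins the chains of COL9A1, COL9A2 and COL9A3. COL9A2 (chromosome 1, 40300487 to 40317813, minus strand) had 2.61, 2.07 and 2.39 FPKM in WT, 2.34, 2.57 and 1.94 in C14R and 2.67, 2.63 and 2.63 in deletion libraries at day 0. It rose to 5.58, 5.76 and 5.39 FPKM in WT, 6.08, 6.45 and 6.1 in C14R and 7.11, 6.69 and 7.43 in deletion libraries at day 18 (log2 change in WT 0.97, SE 0.08, adjusted p = 3.8e-09). COL9A3 had 1.72, 2.48 and 2.49 FPKM in WT, 2.4, 2.39 and 1.51 in C14R and 2.32, 1.81 and 2.15 in deletion libraries at day 0. By day 18 COL9A3 had 3.56, 2.88 and 3.31 FPKM in WT, 3.01, 2.77 and 3.59 in C14R and 3.44, 3.5 and 3.01 in deletion libraries, the smallest rise called (log2 change in WT 0.40, SE 0.13, adjusted p = 0.0093). Its call was lost without WT replicate 1 of day 0 in WT (adjusted p = 0.065) and without C14R replicate 3 of day 0 in C14R (adjusted p = 0.055). COL9A1 missed the minimum, with 0.456, 0.734 and 0.333 FPKM in WT, 0.568, 0.626 and 0.506 in C14R and 0.592, 0.404 and 0.216 in deletion libraries at day 0. COL9A1 at day 18 had 0.289, 0.477 and 0.749 FPKM in WT, 0.681, 0.618 and 0.334 in C14R and 0.601, 0.441 and 0.436 in deletion libraries, and the days overlapped. The other 7 FACIT genes had lower values: COL16A1 at 0.498 to 1.29 and 0.548 to 0.807 FPKM, COL19A1 at 0.115 to 0.237 and 0.0899 to 0.361, and COL22A1 at 0.01 to 0.0828 and 0.0847 to 0.159 at day 0 and day 18. COL12A1, COL14A1, COL20A1 and COL21A1 were at 0.077 FPKM or less in every library.

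COL17A1 (chromosome 10, 104031286 to 104085957, minus strand) had the largest rise on the log2 scale. It encodes a transmembrane collagen best known from the hemidesmosomes that anchor skin cells to their basement membrane. COL17A1 had 0.0749, 0.0238 and 0.0231 FPKM in WT, 0.0826, 0.042 and 0.1 in C14R and 0.057, 0.135 and 0.0899 in deletion libraries at day 0, a low level whose counting error is unknown. At day 18 COL17A1 had 6.96, 5.95 and 6.03 FPKM in WT, 10.5, 6.66 and 10.9 in C14R and 9.93, 7.46 and 8.43 in deletion libraries, the lowest of them above 5 FPKM. The log2 change was 2.81 in WT (SE 0.13, adjusted p = 4.1e-12), 3.24 in C14R and 3.13 in deletion. No fold is given because of the low day 0 level. The sequence before its start is shown as that of the gene with the largest rise (GRCh38.p14, chr10:104085958-104086130, minus strand, 173 bases ending 77 bases before the RefSeq start, 40.5% GC). It holds 1 TATA box and 1 CCAAT box read on the opposite strand (ATTGG), in capitals.
COL17A1: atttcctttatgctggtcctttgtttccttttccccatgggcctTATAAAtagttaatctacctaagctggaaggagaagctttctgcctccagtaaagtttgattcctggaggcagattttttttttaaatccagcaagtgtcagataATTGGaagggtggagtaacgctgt

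COL23A1, another transmembrane collagen, had 0.622, 0.685 and 0.597 FPKM in WT, 0.701, 0.804 and 0.696 in C14R and 0.895, 0.805 and 0.862 in deletion libraries at day 0. It reached 2.34, 1.64 and 2.61 FPKM in WT, 1.54, 3.04 and 2.23 in C14R and 2.61, 2.61 and 1.98 in deletion libraries at day 18 (log2 change in WT 0.96, SE 0.14, adjusted p = 1.1e-05). The other 2 transmembrane genes missed the expression minimum. COL13A1 went from 0.207 to 0.434 FPKM to 0 to 0.0375 FPKM, a fall in the fit with no expression minimum (log2 change in WT -0.37, adjusted p = 5.6e-06), and COL25A1 stayed at 0 to 0.0549 and 0 to 0.0214 FPKM.

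COL26A1 (chromosome 7, 101362820 to 101559024, plus strand) encodes a short secreted collagen outside the main classes. COL26A1 had 0.315, 0.278 and 0.358 FPKM in WT, 0.32, 0.346 and 0.462 in C14R and 0.309, 0.668 and 0.283 in deletion libraries at day 0. At day 18 COL26A1 had 4.73, 3.22 and 3.29 FPKM in WT, 3.7, 3.85 and 4.15 in C14R and 5.31, 5.25 and 3.7 in deletion libraries, and the mean was 11.8-fold higher in WT (log2 change 1.84, SE 0.13, adjusted p = 1.4e-09). Its promoter is set beside that of COL17A1 because these 2 genes rose most (GRCh38.p14, chr7:101362625-101362819, plus strand, 195 bases ending 55 bases before the RefSeq start, 64.1% GC). None of the 5 motifs occurs in it.
COL26A1: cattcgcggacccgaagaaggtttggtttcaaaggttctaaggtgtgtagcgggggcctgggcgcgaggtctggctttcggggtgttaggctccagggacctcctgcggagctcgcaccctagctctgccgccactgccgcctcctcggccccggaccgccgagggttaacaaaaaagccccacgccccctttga

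COL18A1, a multiplexin of basement membranes whose C-terminal fragment is endostatin, ranged over 9.85 to 11.9 FPKM at day 0 and 4.77 to 8.38 FPKM at day 18, with C14R replicate 1 the lowest and the others from 5.94 FPKM up (log2 change in WT -0.55, SE 0.13, adjusted p = 0.0013). Its exons overlap those of SLC19A1 on the opposite strand over 1401 bases, so its value is uncertain where strand was not used. The short-chain collagen gene COL8A2 ranged over 0.475 to 0.737 FPKM at day 0 and 1.36 to 1.86 FPKM at day 18 (log2 change in WT 0.74, SE 0.10, adjusted p = 2.7e-06). COL10A1, known from growth-plate cartilage, ranged over 1.07 to 1.6 FPKM and 0.836 to 1.42 FPKM, and its log2 change in WT of -0.05 (95% interval -0.29 to 0.19, adjusted p = 0.71) was not called. COL7A1, the chain of anchoring fibrils, lay just outside the tested set at 0.622 to 1.03 FPKM at day 0 and 0.592 to 1.07 FPKM at day 18.

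Of the 26 genes below the minimum, 22 were under 1 FPKM in every library, and COL6A3, COL6A6, COL7A1 and COL16A1 exceeded 1 FPKM in some library. In the fit with no minimum, 7 of these 26 were called in WT, where 54.2% of all 21412 genes were called (53.9% in C14R and 54.6% in deletion). COL6A3, COL27A1, COL6A6, COL1A2 and COL13A1 fell, and COL22A1 and COL8A1 rose by 0.12 and 0.16 on the log2 scale. COL27A1, a fibrillar collagen of cartilage, ranged over 0.585 to 0.815 FPKM at day 0 and 0.038 to 0.135 FPKM at day 18 (log2 change in WT -0.61, adjusted p = 4.3e-08). COL2A1, the main cartilage collagen, ranged over 0.026 to 0.102 and 0.0125 to 0.187 FPKM. COL28A1 ranged over 0.0389 to 0.144 and 0.147 to 0.455 FPKM, and COL5A3, COL15A1 and COL24A1 stayed at 0.0733 FPKM or less.

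Of 10 ratios between partner chains, 8 did not overlap between days. No share over ratios of other gene pairs is given, so this separation is not read as particular to collagens. Several of the ratios have a gene in common and are not independent of each other. Within each library, the ratio of COL6A2 to COL6A3 ran from 16.5 to 22.0 at day 0 (median 17.9) and from 473 to 1701 at day 18 (median 868). The day 18 ratio rests on COL6A3 values of 0.0388 to 0.128 FPKM, whose counting error is unknown. COL11A1 over COL11A2 ran from 15.0 to 33.2 at day 0 and from 0.31 to 0.60 at day 18, so the order of the pair turned in every library. COL4A2 over COL4A1 went from 1.25 to 1.40 at day 0 up to 1.51 to 2.83 at day 18. COL5A1 over COL5A2 went from 6.26 to 9.19 up to 9.83 to 17.9, COL6A2 over COL6A1 from 1.57 to 2.09 up to 2.16 to 2.74, and COL9A2 over COL9A3 from 0.83 to 1.52 up to 1.57 to 2.47. COL5A1 over COL11A1 went from 2.93 to 3.63 up to 4.49 to 8.97, and COL6A1 over COL6A3 from 8.05 to 12.6 up to 186 to 623. The other 2 ratios overlapped between days. COL1A1 over COL1A2 spanned 19.8 to 29.2 in the day 0 libraries and 11.1 to 27.4 in the day 18 libraries. COL9A2 over COL9A1 spanned 2.82 to 12.2 and then 7.19 to 19.3. Ratios were not tested, and each depends on the gene lengths the authors' tool used.

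**Figure D3:**
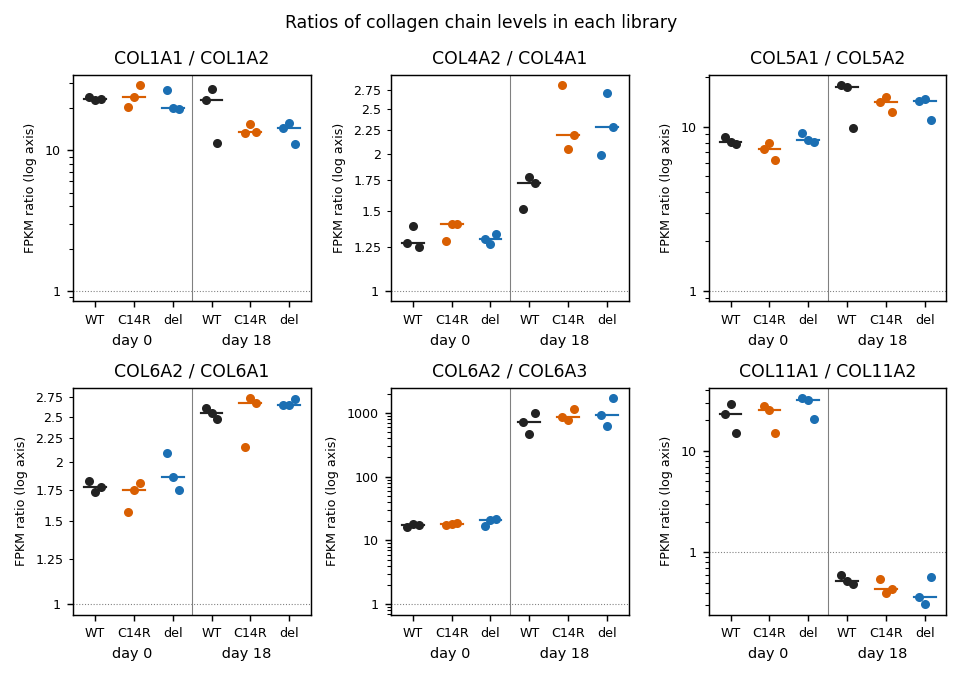
Ratio of FPKM between partner chain genes in each library (points, log axis) with the group median (line), for the 3 constructs at day 0 and day 18, and del for deletion. COL11A1 over COL11A2 crosses 1 (dotted line) from a median of 25.3 at day 0 to 0.49 at day 18, while COL1A1 over COL1A2 overlaps between the days.

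Between constructs no collagen gene passed the threshold in any of the 8 comparisons. Few genes of any kind did: 0% of tested genes were called in C14R against WT at day 0, 0.029% in deletion against WT at day 0, 0.0363% in C14R against WT at day 18, 0.0725% in deletion against WT at day 18, 0.058% in C14R against deletion at day 0, 0.029% at day 18, 0% in the interaction of C14R with day and 0.0145% in that of deletion with day. At an unadjusted limma p under 0.05, the counts of collagen genes among 18 were 0, 1, 4, 6, 1, 0, 3 and 5 in the same order. Both comparisons with WT at a day share the WT libraries, so similar values in C14R and deletion are not independent of each other.

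COL3A1 had the smallest adjusted p among the members against WT at day 18. Its C14R mean was 73% and its deletion mean 73.9% of the WT mean, and all 6 variant libraries printed above lay below all 3 WT libraries. The log2 difference from WT was -0.45 in C14R (95% interval -0.67 to -0.23, adjusted p = 0.12) and -0.43 in deletion (-0.65 to -0.21, adjusted p = 0.15). Without C14R replicate 1 of day 18 the C14R mean was 79.7% of WT and the log2 difference -0.32 (adjusted p = 0.19), and without C14R replicate 2 it was -0.59 and passed (adjusted p = 0.0061), with 0.914% of all genes called. Limma array weights, which count scattered libraries less, called COL3A1 in both variants (adjusted p = 0.020 in C14R and 0.024 in deletion), and raised the share called over all genes tested to 1.49% in C14R and 0.689% in deletion. Leaving C14R replicate 1 out of the shared estimate of spread called it in deletion too (adjusted p = 0.039), with 0.37% of all genes called. Over all settings tried the adjusted p ranged from 0.0061 to 0.93 in C14R and from 0.024 to 0.46 in deletion.

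The COL17A1 mean at day 18 was 148% of the WT mean in C14R and 136% in deletion. The log2 difference was 0.48 in C14R (95% interval 0.20 to 0.76, adjusted p = 0.17) with overlapping libraries, and 0.39 in deletion (0.11 to 0.67, adjusted p = 0.28). Without C14R replicate 1 of day 18 the C14R mean was 139% of WT (log2 difference 0.39, adjusted p = 0.28). COL17A1 passed in C14R with array weights (adjusted p = 0.026) and without C14R replicate 2 of day 18 (adjusted p = 0.0061). COL4A1 was at 78.1% of WT in C14R and 74.2% in deletion (log2 difference -0.24 and -0.27, adjusted p = 0.24 and 0.2), and passed in deletion when C14R replicate 1 was left out of the shared spread (adjusted p = 0.045). Without that library the COL4A1 mean in C14R was 87.0% of WT (log2 difference -0.13, adjusted p = 0.39). COL1A1 was at 73.3% and 79.4% of WT (adjusted p = 0.17 and 0.34), and in C14R without that library at 80.4% (log2 difference -0.22, adjusted p = 0.29). COL9A2 was at 127% of WT in deletion (log2 difference 0.29, adjusted p = 0.18). COL4A2, the partner chain of COL4A1, differed from WT at day 18 by 0.08 in C14R (95% interval -0.04 to 0.21, and 0.11 without replicate 1) and 0.03 in deletion (-0.09 to 0.15).

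At day 0 COL5A1 had a deletion mean 117% of the WT mean with no overlap of their libraries, the largest difference from WT among the members tested on the log2(FPKM + 1) scale (log2 difference 0.21, 95% interval 0.08 to 0.34, adjusted p = 0.76). The lower COL23A1 differed more in proportion, with a deletion mean 135% of the WT mean and no overlap (log2 difference 0.18, 95% interval -0.12 to 0.48, adjusted p = 0.85). COL5A1 was lower in C14R than in deletion by -0.26 on the log2 scale (adjusted p = 0.17), which array weights called (adjusted p = 0.046) while calling 0.689% of all genes. In the tests of whether the day change differs between a variant and WT, COL3A1 had the smallest adjusted p, with -0.47 in C14R (adjusted p = 0.67, and -0.33 with adjusted p = 0.58 without replicate 1 of day 18) and -0.54 in deletion (adjusted p = 0.34). A p above the threshold does not show that the constructs act alike, and the intervals at day 18 reached from -0.67 to 0.76 over all 18 genes in C14R and from -0.65 to 0.67 in deletion.

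**Figure D4:**
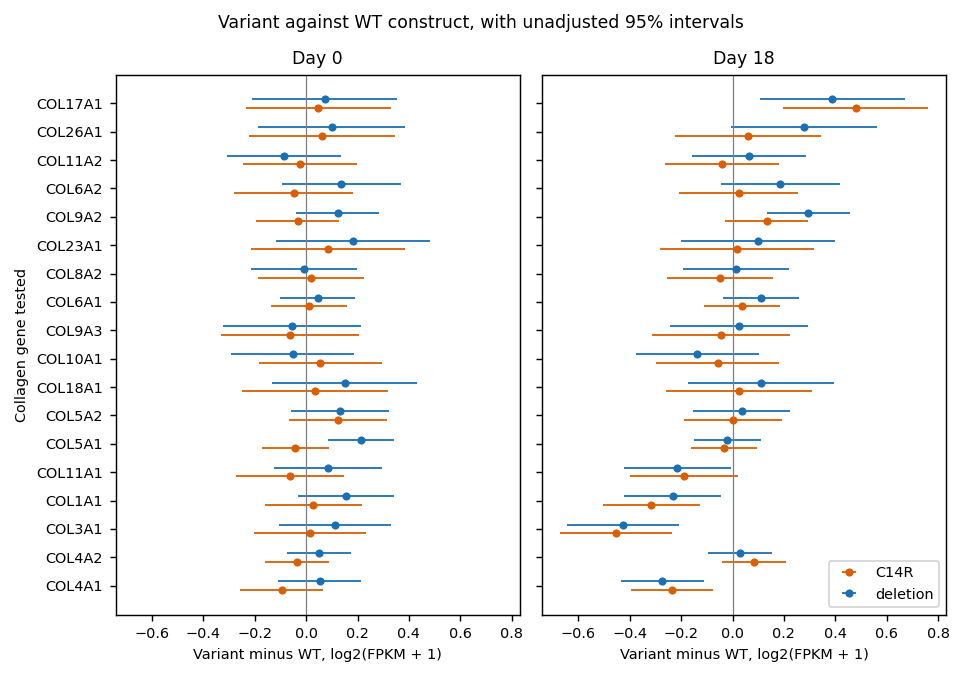
Difference in log2(FPKM + 1) between each variant and WT (horizontal axis) for the 18 collagen genes tested (vertical axis) at day 0 and day 18, with unadjusted 95% intervals. At day 18 COL3A1 lies lowest, at -0.45 in C14R, and COL17A1 highest, at 0.48 in C14R, and none of the differences passed the adjusted threshold.

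The enzymes that make, process and anchor collagen chains were examined as 5 lists chosen with earlier results of these data known, and are described by their counts. Of 16 tested genes of chain modification and folding, 12 fell and 1 rose from day 0 to day 18 in WT, with a median log2 change of -0.34 against 0.03 over all genes. Over all genes tested, 34% fell and 38.2% rose in WT. SERPINH1, the collagen-specific chaperone HSP47, had 44.3, 44.5 and 42.9 FPKM in WT, 38.4, 41.6 and 40.9 in C14R and 47.7, 48.3 and 46.5 in deletion libraries at day 0. SERPINH1 had 21.8, 22.3 and 20.0 FPKM in WT, 16.7, 22.3 and 20.9 in C14R and 18.7, 22 and 19.9 in deletion libraries at day 18, all below the day 0 range (log2 change in WT -1.01, SE 0.08, adjusted p = 3.5e-09). P3H3, of the prolyl 3-hydroxylase family, changed by -1.05 and the lysyl hydroxylase gene PLOD3 by -0.94 on the log2 scale (adjusted p = 2.9e-07 and 3.5e-09). P4HA2, a catalytic subunit of prolyl 4-hydroxylase, was the member that rose (0.49, adjusted p = 2.0e-05). In C14R the list had 12 lower and 1 higher, and in deletion 13 lower and 1 higher.

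All 4 tested cross-linking genes fell in each line, where 34% of all tested genes fell in WT, 35% in C14R and 34.4% in deletion. LOX, the lysyl oxidase that cross-links collagen and elastin, had 11.7, 12.3 and 11.9 FPKM in WT, 12.6, 11.5 and 12.6 in C14R and 12.7, 12.8 and 11.5 in deletion libraries at day 0. LOX had 1.53, 1.86 and 1.95 FPKM in WT, 1.89, 1.29 and 1.46 in C14R and 1.46, 1.9 and 1.7 in deletion libraries at day 18, with no overlap (log2 change in WT -2.22, SE 0.09, adjusted p = 4.1e-13). LOXL2 and LOXL3 changed by -0.47 and -0.37 (adjusted p = 8.1e-05 and 0.0012), and PXDN, the peroxidasin that cross-links type IV collagen, by -0.36 (adjusted p = 1.6e-06).

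Of 12 tested genes of export and propeptide processing, 5 rose and 4 fell in WT, near the shares over all genes of 38.2% and 34%. Those that fell most were ADAMTS3, a procollagen N-proteinase (-1.51 on the log2 scale, adjusted p = 5.7e-10), PCOLCE, an enhancer of C-proteinase (-0.94, adjusted p = 3.1e-07), and BMP1, the C-proteinase itself (-0.80, adjusted p = 2.5e-06). PCOLCE was still at 71.6 to 119 FPKM at day 18, from 196 to 215 FPKM. Of 10 tested genes of degradation and its inhibitors, 5 rose and 5 fell, where 72.2% of all genes were called in either direction. The interstitial collagenase gene MMP1 was at 12.1 to 15.7 FPKM in the day 0 libraries and was listed at 0 in 8 of the 9 day 18 libraries (log2 change in WT -3.86, adjusted p = 5.4e-17). The gelatinase gene MMP2 went from 133 to 147 to 37.2 to 45.8 FPKM (log2 change -1.77, adjusted p = 3.4e-14), and the membrane-type metalloproteinase gene MMP15 from 1.98 to 2.91 to 10.5 to 13.4 FPKM (log2 change 1.76, adjusted p = 6.8e-12).

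Of 5 tested collagen receptor genes, 2 fell and 1 rose in WT, where 34% of all tested genes fell and 38.2% rose. ITGA2, the alpha subunit of the collagen-binding integrin alpha 2 beta 1, had 14.6, 13.1 and 13.3 FPKM in WT, 12.3, 12.3 and 11.3 in C14R and 14.8, 13.9 and 12.9 in deletion libraries at day 0. ITGA2 had 2.05, 2.28 and 2.08 FPKM in WT, 1.95, 2.76 and 2.02 in C14R and 1.94, 2.11 and 1.81 in deletion libraries at day 18 (log2 change in WT -2.22, SE 0.08, adjusted p = 2.2e-13). DDR2, a receptor tyrosine kinase for fibrillar collagens, changed by -0.45 (adjusted p = 2.2e-07), and the common integrin subunit gene ITGB1 by 0.26 (adjusted p = 4.2e-05). No gene of the 5 lists was called against WT in either variant at either day.

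Small RNA genes held 31.4% to 80.1% of the FPKM sum of a library, so the counts also depend on how libraries are scaled. With 525 small RNA symbols left out and the libraries rescaled, the all-gene median log2 change moved from 0.03 to 0.21 in WT, and the share of rises among called genes from 52.9% to 68.6%. Over all genes, 51.2% then rose and 23.4% fell in WT, 49.4% and 25% in C14R, and 52.2% and 23% in deletion. The collagen genes still gave 9 rises and 8 falls in each line. Chain modification then had 8 lower and 3 higher in WT (median -0.15), 9 lower and 2 higher in C14R, and 11 lower and 2 higher in deletion. Cross-linking had 4 lower in WT but 3 in C14R and 3 in deletion, where LOXL3 lost its call (log2 change -0.17, adjusted p = 0.096, and -0.13, adjusted p = 0.20). In WT export had 7 higher and 4 lower, with a median that turned from -0.03 to 0.17, and receptors had 3 higher and 2 lower.

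**Figure D5:**
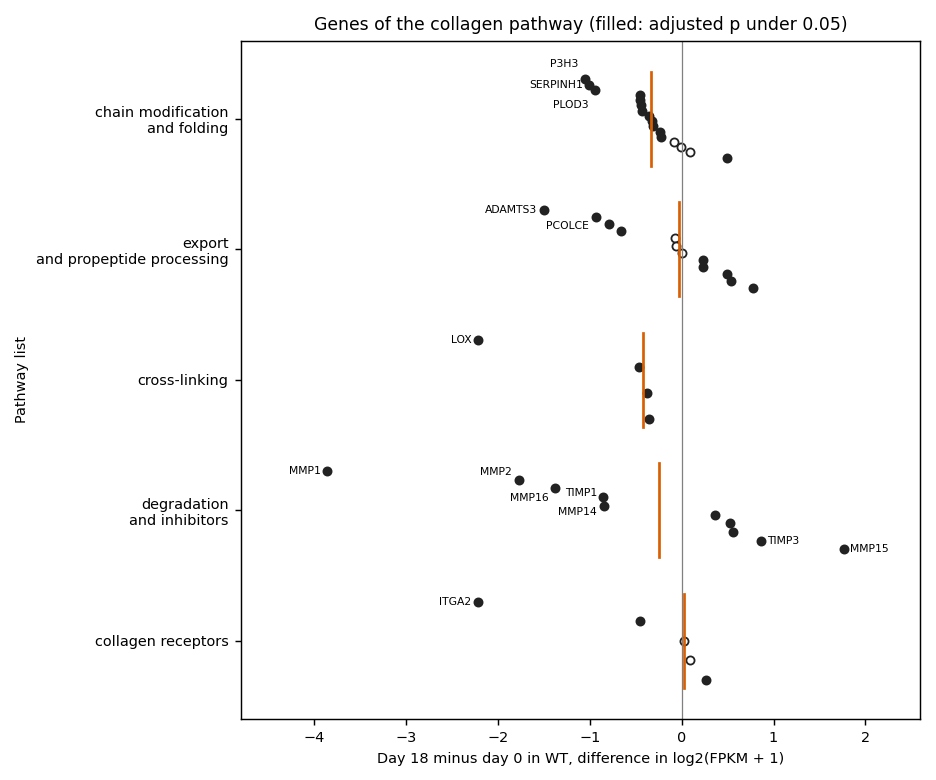
Difference in log2(FPKM + 1) between day 18 and day 0 in WT (horizontal axis) for each tested gene of the 5 pathway lists (vertical axis), filled where the adjusted p was under 0.05, with the list median as an orange line. LOX at -2.22, MMP1 at -3.86 and ITGA2 at -2.22 lie farthest to the left of their lists.

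Markers of mesenchymal-type neuroblastoma cells moved with the collagen genes that fell. The summed level of the 12 markers was 891 to 1048 FPKM in the day 0 libraries and 205 to 220.5 FPKM in the day 18 libraries. In WT, 8 of the 10 tested fell while IL6ST and TWIST2 rose. For this and the other marker counts, 34% of all tested genes fell and 38.2% rose in WT. VIM, the intermediate filament vimentin, made up most of the summed level of the 12 markers at day 0. VIM ranged over 528 to 652 FPKM at day 0 and 47.8 to 55.2 FPKM at day 18. FN1, fibronectin, ranged over 88.5 to 121 and 6.02 to 7.4 FPKM. The sum over 9 fibroblast markers was 135 to 146 FPKM at day 0 and 101 to 109 FPKM at day 18, with 6 of 7 tested lower and PDGFRA higher in WT, while POSTN and TCF21 were at 0.0273 FPKM or less. DCN, the collagen-binding proteoglycan decorin, went from 15.3 to 20.1 to 2.14 to 3.85 FPKM. Sums over 9 sympathetic markers were 693 to 718 FPKM at day 0 and 892 to 1087 FPKM at day 18. Schwann cell markers summed to 31.4 to 41.2 and 34.7 to 40.6 FPKM, mostly PMP22, leukocyte markers to 5.64 to 7.39 and 1.61 to 2.86 FPKM, mostly CD68, and the 6 endothelial markers to under 1 FPKM in every library. Their part in the collagen changes was not tested, and in these bulk libraries fewer cells of a type and less RNA per cell cannot be told apart.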

How the data were processed

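The authors deposited 1 table of FPKM, with 1 row per gene symbol and 1 column per library, and 0 columns lacked a sample. The submitters' processing notes list TopHat2, STAR, Cufflinks 2.2.1 and hg38 without their roles, and strand use is not given in the sources used here. Libraries were grouped by construct and day from their titles. Genes with a mean of at least 1 FPKM over 18 libraries (13785 of 26372, of which 4960 were at 0 throughout) were tested on log2(FPKM + 1), a pseudocount of 1, in 1 fit of 6 group means with limma 3.58.1 in R 4.3.3, with a mean-variance trend and Benjamini-Hochberg adjustment within each comparison. The fit was tried on simulated data for day 18 against day 0 in WT (13785 genes, 100 genes changed at each size). It recovered 82% of changes of 0.5 and 98% of changes of 1 on the log2 scale, with 9 false calls. Changed genes were drawn only from those with a WT day 0 mean above 1 on the log2(FPKM + 1) scale. The recovery therefore does not cover collagen genes that were lower at day 0, and far fewer genes changed than were called in the data. Alternatives were a pseudocount of 0.1, no minimum, a minimum of 5 FPKM, median-of-ratios scaling, quantile normalization, small RNA genes left out, the replicate number as a block, no trend, array weights, only the libraries compared, a log2 change of at least 1, each replicate left out, and C14R replicate 1 of day 18 left out of the shared spread. Members and lists were chosen with earlier results of these data known. Values in every library were given for the 6 members with the highest mean, the 6 largest rises and 6 largest falls in WT, and partner chains. Of each pathway list, up to 3 of the largest changes in WT were named. P4HA2, PXDN and single cell type markers were named after their values were seen. 1 sympathetic marker is not reported here. For 44 of 44 members, positions were looked up by symbol in GENCODE release 29 (GRCh38), and promoter sequences from RefSeq (GRCh38.p14).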

Additional observations from a re-analysis of the deposited data

How the results depend on the processing

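Counts of called collagen genes between days kept their direction and were 17 in each line under all scalings tried, without the variance trend, with array weights and with only the libraries compared. A minimum of 5 FPKM left 9 members to test and called 9 in WT, 9 in C14R and 9 in deletion. A log2 change of at least 1 as well left 11 in WT. With no minimum 26 of 44 were called in deletion, and 24 in WT and 24 in C14R, where 54.6%, 54.2% and 53.9% of all genes were called. Between constructs the count of 0 became 2 in C14R against WT at day 18, 1 in deletion against WT at day 18 and 1 in C14R against deletion at day 0 with array weights, where calls over all genes went from 5 to 205, 10 to 95 and 8 to 95, and 2 in deletion against WT at day 18 when C14R replicate 1 was left out of the shared spread. Leaving out each replicate in turn gave 0 to 2 in C14R against WT at day 18, with 2 (COL3A1 and COL17A1) only without C14R replicate 2 of day 18, and 16 to 17 between days in C14R. COL10A1 between days in WT, never called, changed sign from -0.05 to 0.067 with small RNA genes left out, and ranged from -0.12 to 0.061 with single replicates left out, positive at 0.027 without WT replicate 3 of day 0 and at 0.061 without WT replicate 1 of day 18. COL9A3 lost its call without WT replicate 1 of day 0 (0.28, adjusted p = 0.065 by limma) and without C14R replicate 3 of day 0 (0.28, adjusted p = 0.055). The cause of these shifts was not tested. Of the values for single genes under these settings, 1295 kept their direction and side of the threshold, 18 lost a call, 8 gained one and 3 changed sign. Most of the 18 lost it only because a log2 change of at least 1 was required as well, with the adjusted p unchanged.

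With the replicate number as a block the counts were again 17 in each line and 0 between constructs. Libraries with the same number did not deviate together throughout (correlations from -0.36 to 0.17 over the 9 comparisons). With 3 libraries in each group, such correlations cannot exclude a culture or batch shared by libraries of the same number. Low members limit the precision: with FPKM alone, no counting interval can be given, and this matters most for values under 0.1 FPKM.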

Other observations

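Several collagen genes lie next to each other. COL3A1 and COL5A2 stand tail to tail on chromosome 2, 19150 bases apart, and both fell, by -2.69 and -1.48 on the log2 scale in WT. COL6A1 and COL6A2 stand 93047 bases apart on chromosome 21 and both rose. COL6A5 and COL6A6, 75490 bases apart on chromosome 3, had different levels, at 0 to 0.0295 and 0.951 to 1.37 FPKM at day 0. COL9A1 and COL19A1, 5085 bases apart on chromosome 6, ranged over 0.289 to 0.749 and 0.0899 to 0.361 FPKM at day 18.

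Among the head-to-head type IV genes, COL4A3 had a median of 0.0487 FPKM over the 9 day 0 libraries and COL4A4 a median of 0.246 FPKM, and at day 18 the medians were 0.0495 and 0.254 FPKM. COL4A5 was listed at 0 in 8 of the 9 day 18 libraries. The remaining library, deletion replicate 3, had 0.0275 FPKM.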
